A study of Mus musculus with 8 samples.

Results

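Alternative activation is the state that macrophages enter when they meet IL-4 or IL-13, and 8 genes that mark or regulate it were followed here in mouse bone marrow-derived macrophages (BMDMs) given sphingosine d18:1, So(d18:1). The genes were Chil3, Retnla, Arg1, Mrc1, Il4ra, Pparg, Klf4 and Tgm2. They were chosen as a list by name, with earlier results of these data known. All 8 were found among the 55357 genes of the count table. After So(d18:1), Pparg fell by 50.3% and Chil3 by 28.7%. Mrc1 and Tgm2 had lower means with libraries that overlapped between the groups, Klf4 had a slightly higher mean, Arg1 and Il4ra had nearly equal means, and Retnla was essentially not counted.

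The cells were grown from the marrow of C57BL/6J wild-type mice for 5 to 6 days with 10 ng/ml M-CSF, the growth factor that turns marrow cells into macrophages. So(d18:1) was given at 2 μM in methanol for 6 h, the control BMDMs received methanol for the same time, and 4 libraries of polyA RNA were sequenced in each group. The sample labels name no other stimulus, whereas the study's text describes the cells of this RNA sequencing as being under inflammatory stimulation, so whether the cells of either group also received a stimulus is not settled here. No IL-4 or IL-13 is named among the additions to the culture. The study calls the samples of a group biologically independent, but whether they came from separate mice is not given in the sources used here, so p-values measure the spread between these samples.

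Library totals ranged from 20819860 to 25114354 counts in control and from 17748397 to 26088609 in So(d18:1). The 8 genes together took 0.142% to 0.152% of a control library and 0.121% to 0.132% of a So(d18:1) library, and the groups did not overlap. Macrophage markers had the highest summed level of the 8 cell type lists, with a control mean of 31731 CPM. CPM are counts scaled to a common library total with TMM factors. Most of that sum was Lyz2, at 20723 CPM in control, with Csf1r at 6234 CPM and Adgre1 at 2213 CPM. Of 14514 genes with enough counts to test, 1298 (8.94%) passed an adjusted p of 0.05 in edgeR's quasi-likelihood test, of which 562 (3.87%) were higher and 736 (5.07%) lower after So(d18:1), and the median log2 fold change over all genes tested was 0.0036.

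In a macrophage, IL-4 binds a receptor built from Il4ra and either Il2rg or Il13ra1, JAK kinases then phosphorylate STAT6, and STAT6 enters the nucleus and switches on the marker genes. Arg1, Chil3, Retnla and Mrc1 are the classical readouts of that response in mice, and Tgm2 is a readout shared by mouse and human macrophages. PPARγ, encoded by Pparg, and KLF4 are transcription factors that work with STAT6 and help to hold the programme in place, and PPARγ also drives fatty acid uptake and oxidation.

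Pparg, the nuclear receptor of this list, lies on the plus strand at chr6:115360951-115490399 (GRCm38, the build also called mm10). In control libraries 1 to 4 it was at 11.1, 9.71, 12.1 and 11.6 CPM, and in So(d18:1) libraries 1 to 4 at 5.05, 4.57, 5.99 and 6.403 CPM. Every So(d18:1) library was below every control library. The mean fell from 11.1 ± 1.03 to 5.50 ± 0.841 CPM (SD, n = 4 per group), or -1.01 on the log2 scale (standard error 0.12, adjusted p = 9.8e-06, edgeR). The 4 libraries of a group held 230 to 287 counts of Pparg in control and 90 to 165 in So(d18:1). With each library left out in turn, the log2 fold change lay between -1.10 and -0.92 and the adjusted p of edgeR was at most 0.000142.

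Klf4, the zinc finger factor of the list, lies on the minus strand at chr4:55527143-55532466. Control libraries held 9.53, 10.5, 10.75 and 11.02 CPM, and So(d18:1) libraries held 11.9, 11.7, 12.1 and 12.3 CPM. All 4 So(d18:1) libraries were above all 4 control libraries, but the gap was narrow. The mean was 10.4 ± 0.650 CPM without and 12.0 ± 0.251 CPM with So(d18:1). The log2 fold change of 0.20 (standard error 0.090) did not pass the test across all genes (edgeR, unadjusted p = 0.0377, adjusted p = 0.183). Groups that did not overlap were found for 15.0% of all genes tested in either direction.

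Il4ra encodes the subunit through which IL-4 and IL-13 signal, and lies on the plus strand at chr7:125552120-125579474. It was at 204, 199, 199 and 197 CPM in control and at 202, 189, 200.01 and 212 CPM in So(d18:1). The So(d18:1) libraries spread on both sides of the control libraries. The log2 fold change was 0.0065 (standard error 0.043, adjusted p = 0.951, edgeR), the smallest standard error among the 7 genes tested. Its sign turned with another scaling or with 1 library left out.

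Chil3 encodes a secreted chitinase-like protein, also called Ym1, and lies on the minus strand at chr3:106147554-106167564. Control libraries held 298, 277, 389 and 342 CPM and So(d18:1) libraries held 232, 214, 237 and 248 CPM. No So(d18:1) library reached the lowest control library, and the control libraries were spread more widely than the So(d18:1) libraries. The mean fell from 327 ± 49.4 to 233 ± 14.0 CPM, or -0.49 on the log2 scale (standard error 0.10, adjusted p = 0.0244, edgeR). This call was lost in 5 of the 8 fits with 1 library left out, with an adjusted p of edgeR of 0.0683 without control replicate 4, 0.0552, 0.0509, 0.0522 and 0.0658 without So(d18:1) replicates 1, 2, 3 and 4, and log2 fold changes between -0.56 and -0.39 over the 8 fits. In bulk RNA, fewer cells of a type that express a gene and less RNA of that gene per cell cannot be told apart.

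Chil3 has a near-identical neighbour, Chil4, on the same strand at chr3:106201490-106219507. The longest transcripts of the pair are 94.4% identical, and 26.9% of the 50-base words of Chil3's exons recur in another gene, Chil4 or Gm6522. How the authors treated reads that match several genes is not given in the sources used here. Control libraries held a mean of 0.061 CPM of Chil4 and 0.086 CPM of Gm6522, and So(d18:1) libraries held 0.013 and 0.035 CPM.

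The upstream sequences of Chil3, Chil4 and Retnla are shown because Chil3, its near copy and a further marker of the same response were counted at very different levels. They come from 250-base windows before the RefSeq start (GRCm38.p6) and read 5′ to 3′ on the gene's strand. They were cut to end just before the gene's start in GENCODE M21. Capitals mark a match to the letters that STAT proteins bind, TTCNNNGAA in Chil3 and Chil4 and TTCNNNNGAA, the spacing that STAT6 prefers, in Retnla. Chil3's stretch is chr3:106167565-106167814, Chil4's is chr3:106219508-106219729, both on the minus strand, and Retnla's is chr16:48842359-48842550 on the plus strand.
Chil3: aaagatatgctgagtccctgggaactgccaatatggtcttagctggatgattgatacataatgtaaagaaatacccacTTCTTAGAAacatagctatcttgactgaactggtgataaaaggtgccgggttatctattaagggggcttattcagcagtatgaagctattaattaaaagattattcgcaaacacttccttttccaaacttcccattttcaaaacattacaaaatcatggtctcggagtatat
Chil4: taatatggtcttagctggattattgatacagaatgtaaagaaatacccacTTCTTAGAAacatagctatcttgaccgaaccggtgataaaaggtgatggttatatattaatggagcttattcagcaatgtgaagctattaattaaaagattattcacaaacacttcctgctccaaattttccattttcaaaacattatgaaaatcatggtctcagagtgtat
Retnla: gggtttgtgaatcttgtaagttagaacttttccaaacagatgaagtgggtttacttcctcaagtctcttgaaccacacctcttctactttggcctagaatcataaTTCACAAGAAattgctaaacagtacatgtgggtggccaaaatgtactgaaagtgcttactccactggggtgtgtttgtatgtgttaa

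TTCTTAGAA began 172 bases before the RefSeq start of Chil3 and 200 bases before that of Chil4. The stretches shown for Chil4 and Retnla end earlier, at the GENCODE start, after 222 and 192 bases. The distances of 172 and 200 are therefore not counted to matching points of the pair. Over the uncut 250-base windows, the pair aligned with 201 of 221 bases identical (91.0%). Chil3 was counted at 327 CPM in control while Chil4, with the same 9 letters upstream, stayed under 0.1 CPM in the mean of each group. RefSeq windows of 250 bases before a start were held for 6 of the 8 genes, 8 windows in all, with none for Arg1 and Tgm2. TTCNNNGAA, searched on both strands, was in 7.02% of 32851 windows and in 1 of these 8, that of Chil3. TTCNNNNGAA was in 5.85% of the windows and in 1 of the 8, that of Retnla, where TTCACAAGAA began 145 bases before the RefSeq start. AGGTCANAGGTCA, the repeat that PPARγ binds with RXR, was in 0.0335% of all windows and in none of the 8. These matches are letters in a window and were not tested for binding.

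Retnla encodes a secreted resistin-like protein, also called Fizz1 or RELMα, and lies on the plus strand at chr16:48842551-48844461. It had 0 counts in all 4 control libraries and in So(d18:1) libraries 1, 2 and 3, and 1 count in So(d18:1) library 4. A count of 0 allows a level of up to 0.119 to 0.144 CPM in a control library and up to 0.137 to 0.169 CPM in those 3 So(d18:1) libraries, for counting error only. It was not tested, and no difference between the groups was detectable at this depth.

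Arg1 encodes arginase 1, which turns arginine into ornithine and urea, and lies on the minus strand at chr10:24915221-24927484. It was at 7.99, 7.76, 13.1 and 9.57 CPM in control and at 10.1, 9.95, 9.89 and 8.89 CPM in So(d18:1). Control library 3 was the highest of all 8, and the So(d18:1) libraries lay inside the control range. The log2 fold change was 0.010 (standard error 0.14, adjusted p = 0.977, edgeR), the widest standard error among the 7 genes tested, and it ranged from -0.081 to 0.20 with 1 library left out.

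Mrc1 encodes the mannose receptor CD206, a lectin of the macrophage surface, and lies on the plus strand at chr2:14229392-14332057. It was at 587, 562, 497 and 544 CPM in control and at 433, 538, 417 and 481 CPM in So(d18:1). So(d18:1) library 2 lay inside the control range and the other 3 below it. The mean was 548 ± 38.1 CPM without and 467 ± 54.3 CPM with So(d18:1), and the difference on the log2 scale was -0.23 (standard error 0.077, adjusted p = 0.0946, edgeR). Without So(d18:1) replicate 2, the gene with its log2 fold change of -0.30 passed the test (adjusted p = 0.00479, edgeR), as it did in all 8 libraries by DESeq2 (adjusted p = 0.0191).

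Tgm2 encodes a transglutaminase that cross-links proteins, and lies on the minus strand at chr2:158116402-158146436. It was at 349, 352, 418 and 412 CPM in control and at 308, 289, 349 and 368 CPM in So(d18:1). The lowest 2 So(d18:1) libraries lay below the control range and the other 2 reached it. The log2 fold change was -0.22 (standard error 0.090, adjusted p = 0.177, edgeR), and DESeq2 passed it with an adjusted p of 0.0423. Of its 50-base words, 18.7% recur in Gm20412 or Rprd1b, whose exons overlap it on the other strand. Gm20412 had 0 counts, and Rprd1b had a mean of 32.7 CPM without and 34.3 CPM with So(d18:1), below Tgm2 in each group. Whether reads were counted by strand is not given in the sources used here.

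Counted over the list, 2 of the 7 genes tested passed the test, both lower, against 8.94% of all genes that passed it, 3.87% as higher and 5.07% as lower. The median log2 fold change of the 7 was -0.22. Since the list was chosen with earlier results of these data known, such counts are a description only. The groups did not overlap for 3 of the 7, Pparg and Chil3 as lower and Klf4 as higher, against 15.0% of all genes tested. Under the rule of the study's methods, an unadjusted p of 0.05 with a fold change of at least 1.5, Pparg alone of the 7 was called, against 3.89% of all genes tested in either direction and 2.48% as lower.

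**Figure D1:**
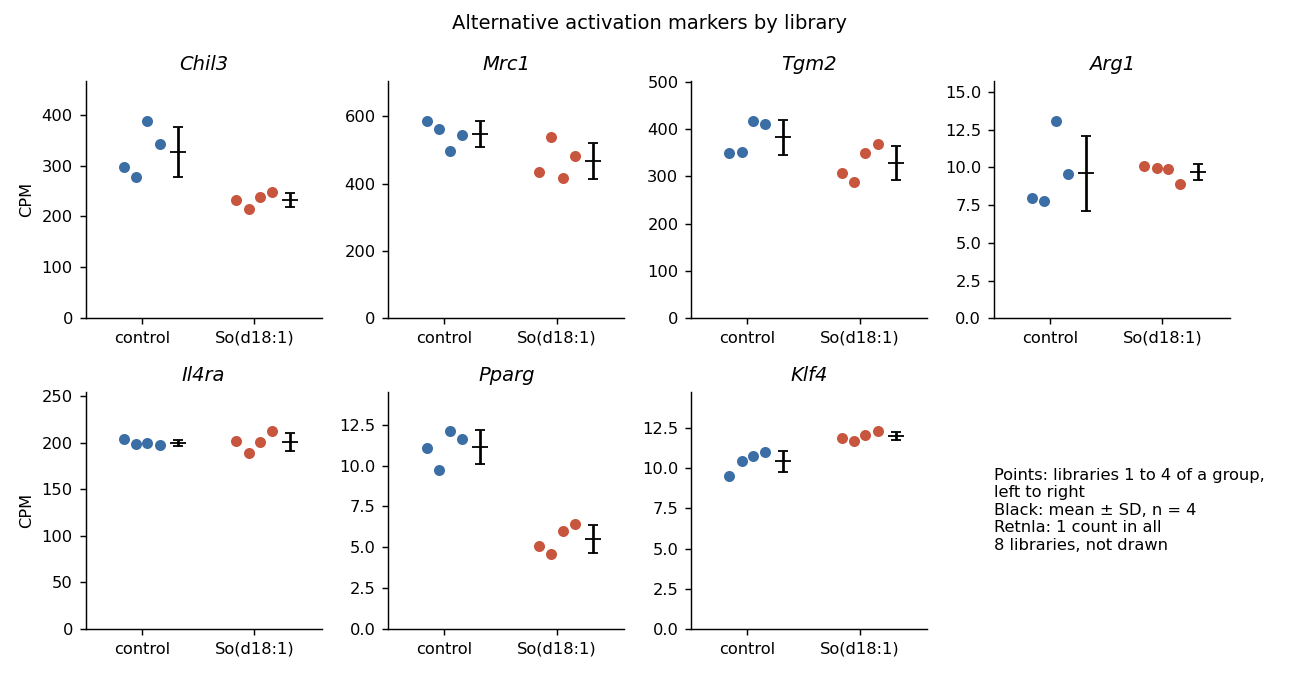
Level of each gene in CPM (vertical axis from 0), with 1 point per library, 4 control and 4 So(d18:1), and the mean ± SD in black. The Pparg points at 4.57 to 6.403 CPM after So(d18:1) sit well below the control points at 9.71 to 12.1 CPM, and those of Chil3 and Klf4 also do not overlap between groups.

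**Figure D2:**
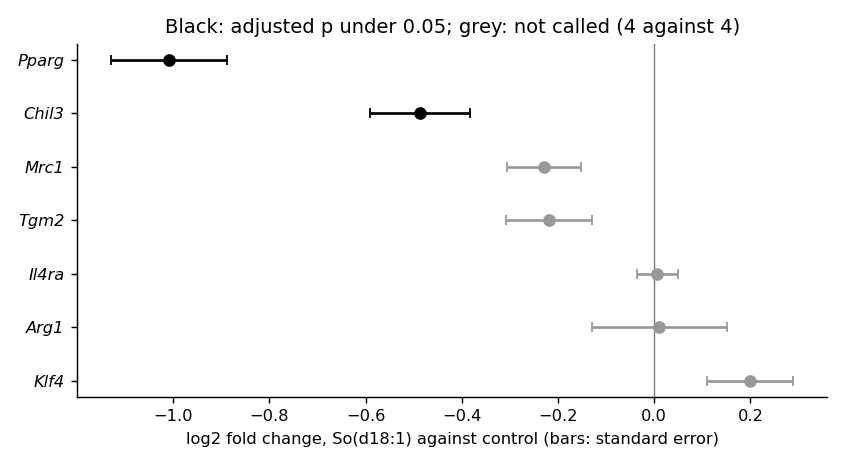
Log2 fold change of So(d18:1) against control (horizontal axis) for the 7 genes tested, with bars for the standard error of the edgeR fit. Pparg at -1.01 and Chil3 at -0.49 are drawn in black as past an adjusted p of 0.05, and the other 5 in grey lie between -0.23 and 0.20.

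Levels of different genes can be compared only per length, here as CPM per kilobase of exon. In control, Chil3 had the highest level at 200.1 ± 30.3 CPM per kilobase, followed by Mrc1 at 86.0 ± 5.99 and Tgm2 at 83.0 ± 8.13, whose libraries overlapped so that their order cannot be told. Il4ra followed at 33.3 ± 0.512, and Arg1 at 4.31 ± 1.11, Pparg at 3.77 ± 0.348 and Klf4 at 3.42 ± 0.213 CPM per kilobase formed a low group in which each neighbour overlapped the next. Chil3 was above Mrc1, Tgm2 above Il4ra and Il4ra above Arg1 in every library of both groups. With So(d18:1), Pparg moved to the bottom of the order. It was at 1.86 ± 0.285 CPM per kilobase, below Klf4 at 3.93 ± 0.0823 in 4 of 4 libraries, where in control it was above Klf4 in 3 of 4. Dividing by the longest transcript in place of all exons put Tgm2 at 106 and Mrc1 at 102 CPM per kilobase in control, which turns that order.

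**Figure D3:**
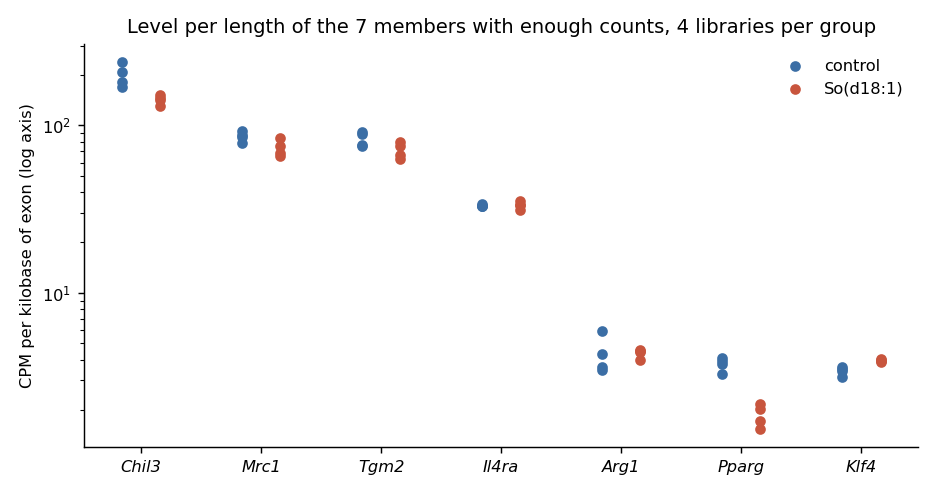
Level per length of the 7 genes in CPM per kilobase of exon on a log axis, 1 point per library, control in blue and So(d18:1) in red. Chil3, Mrc1, Tgm2 and Il4ra lie above 30 in every library and Arg1, Pparg and Klf4 below 6, with Pparg lowest after So(d18:1).

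BMDM cultures can hold neutrophil and monocyte precursors, in which Chil3 is also strongly expressed. Of 12 neutrophil and myeloid precursor markers tested, 6 fell (Prtn3, Cxcr2, S100a8, S100a9, Elane and Mpo) and 1 rose. The latter was Mmp8, a neutrophil collagenase, at a log2 fold change of 1.25. Over all genes tested, 5.07% fell and 3.87% rose. The summed level of the 12 markers was 1776 to 2415 CPM in control and 1510 to 1668 CPM in So(d18:1). The groups did not overlap, and no marker of the list was at 0. Of the 8 monocyte markers, which include Chil3 itself, 5 fell and Vcan rose, with sums of 3423 to 3679 CPM in control and 2958 to 3149 CPM in So(d18:1). Of the 10 macrophage markers, Mertk, Aif1 and Cd68 fell and Itgam rose, with sums of 30964 to 33438 CPM in control and 26791 to 31776 CPM in So(d18:1). The counts of fallen neutrophil markers dropped to 3 without control replicate 4 or without So(d18:1) replicate 2, 3 or 4.

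Within each library, Chil3 was divided by the summed neutrophil and precursor markers. The log2 ratio was -2.65 ± 0.030 (SD, n = 4) in control and -2.78 ± 0.064 in So(d18:1), a difference of -0.13 where that of Chil3 alone was -0.49 (exact permutation test, two-sided p = 0.0286, the smallest that 4 against 4 can give). In the sum without Mmp8, S100a8 and S100a9, an alternative chosen after seeing the data, the difference was -0.063 (exact permutation p = 0.2). Against the summed macrophage markers, most of which is Lyz2, the log2 ratio of Chil3 differed by -0.36 without overlap. Against the monocyte markers other than Chil3 it differed by -0.28 with overlap. The summed neutrophil markers themselves differed by -0.35 and the summed macrophage markers by -0.12 on the log2 scale, so the ratios differ by construction. The part of precursor cells in the difference of Chil3 was not tested.

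For Pparg the log2 ratio differed by -0.67 against the neutrophil markers, by -0.91 against the macrophage markers and by -0.80 against the monocyte markers, each without overlap between the groups. The log2 ratio of Klf4 was higher by 0.55, 0.32 and 0.42 and that of Il4ra by 0.35, 0.12 and 0.23 against the same 3 sums, also without overlap. Those of Mrc1, Tgm2 and Arg1 overlapped between the groups for each sum. Adjusted over the 21 ratios by the Benjamini-Hochberg method, the smallest exact permutation p was 0.0545, so no ratio passed 0.05.

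The other marker lists had low sums, and their calls stand beside 5.07% of all genes as lower and 3.87% as higher. Of the eosinophil, basophil and mast cell markers, which include Il4 and Il13, 2 of 6 tested fell (Prg2 and Siglecf), and their sum was 32.8 to 44.7 CPM in control and 26.2 to 28.4 CPM in So(d18:1). The calls moved to 0 without So(d18:1) replicate 2 and to 1 without control replicate 1, 3 or 4 or So(d18:1) replicate 1, 3 or 4. Il4 itself was at 3.496 CPM in control libraries and at 2.73 CPM after So(d18:1) (log2 fold change -0.35, adjusted p = 0.175, edgeR), and Il13 was at 0.033 and 0.031 CPM. Of the 5 lymphocyte markers tested, Cd4 and Nkg7 fell, with sums of 24.4 to 32.1 CPM in control and 16.1 to 22.2 CPM in So(d18:1). The number of lymphocyte markers that fell was 1 in each fit without 1 library other than control replicate 2 or So(d18:1) replicate 2. No dendritic cell marker of 6 and no stromal or endothelial marker of 8 passed the test. Without control replicate 2 or So(d18:1) replicate 2, 1 stromal or endothelial marker did. Dendritic cell markers summed to 7.92 to 10.3 CPM in control and 8.23 to 9.14 CPM in So(d18:1). The median log2 fold change of those tested was -0.36, so a difference could be missed at these low levels. Erythroid markers summed to at most 1.203 CPM in any library. The part of these cells in the results above was not tested.

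**Figure D4:**
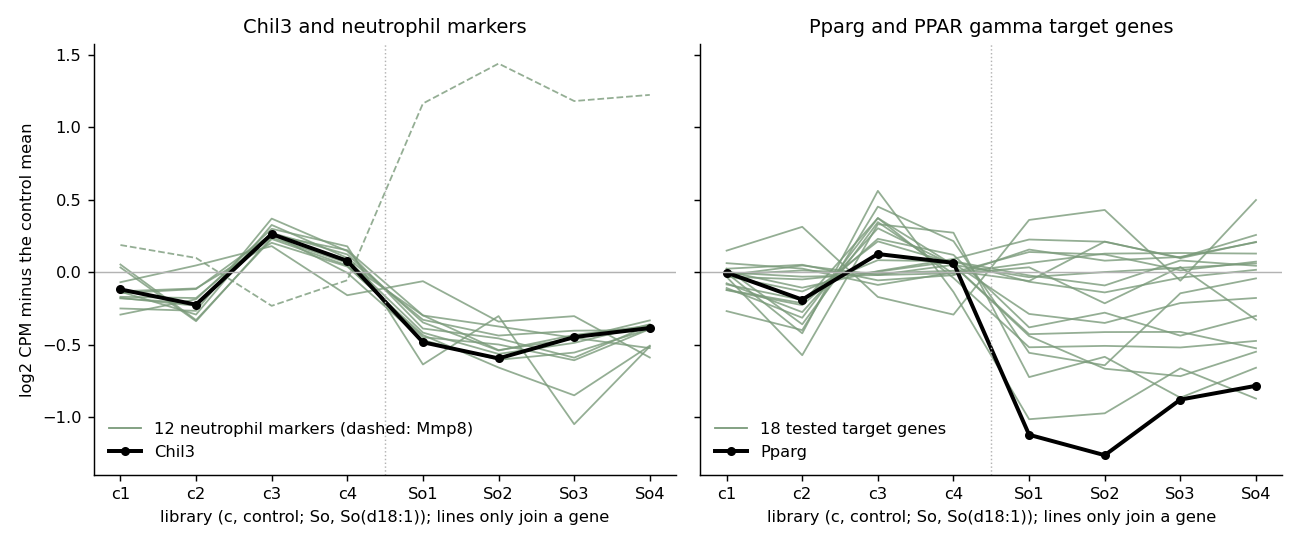
Difference in log2 CPM from the control mean in each of the 8 libraries (c, control; So, So(d18:1)) for Chil3 with 12 neutrophil and precursor markers (left, Mmp8 dashed) and for Pparg with 18 tested PPARγ target genes (right). Mmp8 rises after So(d18:1) where Chil3, in black, and the other marker lines lie lower, and Pparg lies below most of the target genes in the So(d18:1) libraries.

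The genes whose profile over the 8 libraries was closest to that of Pparg, among 11543 genes with a mean log2 CPM of at least 1, were Slamf7, Gm6377 and Cd83. Their root mean square differences from Pparg, each gene centred on its own mean, were 0.125, 0.131 and 0.147 on the log2 scale. Slamf7, a receptor of the SLAM family, went from 49.1 to 27.8 CPM, and Cd83, a membrane glycoprotein of activated antigen-presenting cells, went from 24.8 to 14.1 CPM. Their lower level after So(d18:1) follows from the way they were picked and is a description only.

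In the list of IL-4 receptor and STAT6 signalling genes other than Il4ra, 18 were tested, 2 fell and 0 rose, where 5.07% of all genes fell and 3.87% rose, and the median log2 fold change was -0.033. Without control replicate 1, 2 genes of this list rose, and without So(d18:1) replicate 4, 1 rose. Il13ra1, which pairs with Il4ra in the receptor for IL-13, fell from 57.0 ± 2.03 to 46.8 ± 3.58 CPM (log2 fold change -0.28, standard error 0.058, adjusted p = 0.0030, edgeR). Irs2, an adaptor that links the receptor to PI3 kinase, fell from 38.7 ± 3.10 to 30.2 ± 2.38 CPM (log2 fold change -0.36, standard error 0.069, adjusted p = 0.0019, edgeR). Il2rg, Stat6, Jak1, Jak3 and Tyk2 had log2 fold changes between -0.074 and 0.079 and did not pass the test, and Il13ra2, the decoy receptor for IL-13, had no count in any library. By unadjusted p, the next genes of the list were Pik3cd, a PI3 kinase subunit, at 0.14, and Ptpn1, a phosphatase, at -0.13, with adjusted p of 0.053 and 0.0651 (edgeR). Il4, also on this list, had a larger log2 fold change of -0.35 and did not pass the test (adjusted p = 0.175, edgeR).

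Of 24 other tested genes that IL-4 induces in macrophages, 11 fell and 1 rose, where 5.07% and 3.87% of all genes did. Their median log2 fold change was -0.30. This list too was chosen with earlier results of these data known, so its counts are a description only. Clec10a, a galactose-binding lectin, was at 85.2, 81.8, 95.8 and 81.8 CPM in control and at 45.6, 39.3, 39.0 and 42.1 CPM in So(d18:1). Every So(d18:1) library was far below every control library, and the log2 fold change was -1.05 (standard error 0.062, adjusted p = 4.8e-10, edgeR). F13a1, the A chain of coagulation factor XIII and a relative of Tgm2 that is also on the monocyte list, fell from 1762 ± 20.6 to 1414 ± 39.3 CPM, a log2 fold change of -0.32, and Plxdc2, a plexin domain protein, fell by 0.56 on the log2 scale. Mgl2, the near copy of Clec10a, fell by 1.16 on the log2 scale and is named after its values were seen, since 9.02% of Clec10a's 50-base words recur in other genes, Mgl2 first among them. Ptgs1, which encodes cyclooxygenase 1, rose from 151 ± 10.1 to 252 ± 14.1 CPM (log2 fold change 0.73, standard error 0.052). Ccl17, Ccl22, Cd209d, Cdh1, Chil4, Hbegf, Pdcd1lg2 and Rnase2a were too low to test. The number that fell was 7 without control replicate 1 or without So(d18:1) replicate 3 or 4, and 6 without So(d18:1) replicate 2.

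Transcription factors of alternative activation were called as higher and as lower. Of 23 other than Pparg and Klf4, 5 fell and 2 rose, where 5.07% of all genes fell and 3.87% rose. The median log2 fold change of the 23 was -0.090. Maf fell from 801 ± 7.91 to 682 ± 18.3 CPM (log2 fold change -0.23) and Mef2a by 0.17 on the log2 scale. Nr1h3, the oxysterol receptor LXRα and a known target of PPARγ, fell by 0.60, Myc by 0.81 and Trib1 by 0.41 on the log2 scale, and these 3 are named after their values were seen. Nfil3 rose from 39.1 ± 3.20 to 49.7 ± 3.86 CPM (log2 fold change 0.35).

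Lipid-handling genes that PPARγ is known to induce were read beside Pparg. Of 18 tested, 4 fell and 1 rose, where 5.07% of all genes fell and 3.87% rose. The median log2 fold change of the 18 was -0.099. Fabp4, a fatty acid carrier and a standard readout of PPARγ, was at 9.91, 7.40, 14.7 and 9.04 CPM in control and at 4.88, 5.02, 6.25 and 5.39 CPM in So(d18:1). Its groups did not overlap, and it fell by 0.93 on the log2 scale (standard error 0.19, adjusted p = 0.0076, edgeR). Lpl, which frees fatty acids from lipoproteins, fell from 601 ± 102 to 396 ± 34.3 CPM (log2 fold change -0.60), Gpd1, a glycerol phosphate dehydrogenase, by 0.76, and Fabp5, named after its values were seen, by 0.52 on the log2 scale. Pnpla2, the main triglyceride lipase, rose by 0.20 on the log2 scale. The number that fell was 1 without control replicate 4 or So(d18:1) replicate 3, 2 without So(d18:1) replicate 2 or 4, and 7 without control replicate 2, and 2 rose without control replicate 2 or So(d18:1) replicate 1.

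Relatives of each marker were read as well, where 5.07% of all genes fell and 3.87% rose. In the chitinase family, 1 of 5 tested fell, Chil3 itself, and Chil1 was at -0.42 on the log2 scale (adjusted p = 0.0956, edgeR) while Chid1, Chil5 and Ctbs lay between 0.012 and 0.080. The count of fallen chitinase family genes was 2 without control replicate 2 and 0 in the 5 fits that lose Chil3. Of the resistin family only Retnlg, a neutrophil gene, had enough counts, with means of 11.8 CPM without and 9.42 CPM with So(d18:1) (log2 fold change -0.33, adjusted p = 0.0763, edgeR), which passed without So(d18:1) replicate 1, and Retnlb had none. Of the mannose receptor family, Ly75, the endocytic receptor DEC-205, fell by 0.60 on the log2 scale, Pla2r1 was at 0.63 on that scale (adjusted p = 0.245, edgeR), and Mrc2 was too low to test at 0.240 CPM in control. Ppard, the other PPAR gene with enough counts, had means of 36.5 CPM without and 41.4 CPM with So(d18:1) (log2 fold change 0.18, adjusted p = 0.0771, edgeR), which passed without control replicate 3, and Ppara had at most 0.012 CPM in the mean of a group. Pparg and Ppard thus had log2 fold changes of opposite sign.

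Of 11 KLF genes other than Klf4, 2 rose and 0 fell, where 3.87% of all genes rose and 5.07% fell. Klf2, a factor that restrains inflammatory gene expression in myeloid cells, rose from 21.8 ± 1.12 to 28.6 ± 2.68 CPM (log2 fold change 0.39, standard error 0.074, adjusted p = 0.0016, edgeR), and Klf13 rose by 0.20 on the log2 scale with an adjusted p of 0.0052 (edgeR). Klf13 had the same log2 fold change as Klf4 but 217 CPM in control against 10.4 CPM for Klf4. Klf8, Klf9 and Klf6 had log2 fold changes of 0.37, 0.14 and 0.0069 and did not pass the test. Of the transglutaminases, F13a1 fell, and Tgm1 and Tgm4 had log2 fold changes of -0.13 and -0.017 (adjusted p = 0.629 and 0.977, edgeR).

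Arginine is the substrate for which arginase and the inducible nitric oxide synthase compete, and Arg1 was read beside the genes that handle it. Of 10 other genes tested, 3 fell and 0 rose, where 5.07% of all genes fell and 3.87% rose. With 1 library left out, 2 to 4 fell, and 1 rose without control replicate 4. The transporter Slc7a7 fell by 0.42, Gatm, an enzyme of creatine synthesis, by 0.30 and the transporter Slc7a2 by 0.36 on the log2 scale. Arg2, the mitochondrial arginase, had means of 8.31 ± 0.854 CPM without and 10.4 ± 0.428 CPM with So(d18:1), without overlap, and did not pass the test (log2 fold change 0.32, adjusted p = 0.0559, edgeR). Got1 was at -0.20 on the log2 scale (adjusted p = 0.0517, edgeR).

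Classical activation genes, the opposite pole of this axis, moved in either direction. Of 16 tested, 3 fell and 1 rose, where 5.07% of all genes fell and 3.87% rose. The median log2 fold change of the 16 was -0.0035. The transcription factor Irf1 rose by 0.24, and the costimulatory ligands Cd86 and Cd80 fell by 0.30 and 0.28 and the scavenger receptor Marco by 1.04 on the log2 scale, although the groups overlapped for Marco. Nos2, Il12b, Il6, Il23a, Cxcl9 and Cxcl11 were too low to test, with Nos2 at 0.230 CPM in control. The number that rose was 2 without control replicate 3 or So(d18:1) replicate 2, and the number that fell was 0 without control replicate 3 or 4 or So(d18:1) replicate 2, and 1 without So(d18:1) replicate 1 or 3.

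**Figure D5:**
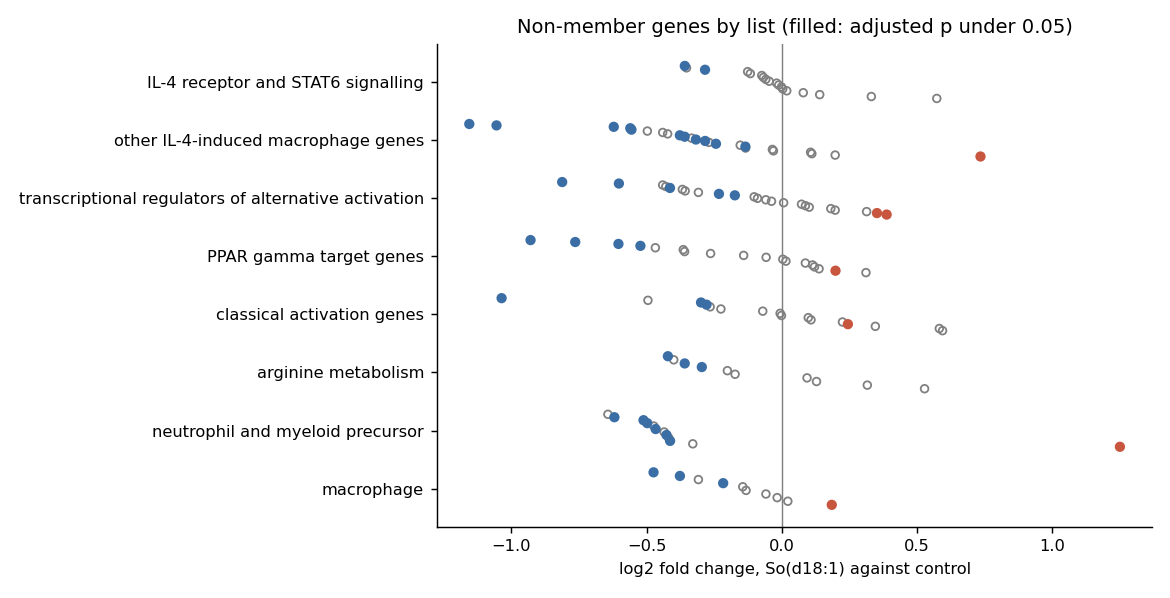
Log2 fold change of So(d18:1) against control (horizontal axis) for the tested genes of 8 lists other than the 8 markers, 1 point per gene, filled where the adjusted p of edgeR is under 0.05 (blue lower, red higher). Most filled points of the IL-4-induced genes lie left of 0, down to Mgl2 at -1.16, while those of the regulators lie on both sides.

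Of 27 called genes named here besides the 8 markers, not counting Mgl2, the genes closest to Pparg and genes named as cell type markers alone, 17 were called in each of the 8 fits with 1 library left out. The call of Gpd1 was lost without control replicate 3 or 4 or So(d18:1) replicate 3, that of Myc without control replicate 3 or So(d18:1) replicate 1 or 2, and that of Trib1 without control replicate 4 or So(d18:1) replicate 2 or 3. Cd86 was lost without control replicate 3 or 4 or So(d18:1) replicate 1 or 2. Lpl remained called in 3 of the 8 fits, Fabp5, Ly75 and Marco in 2, and Cd80 and Slc7a2 in 1.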

How the data were processed

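RNA of 4 control and 4 So(d18:1) BMDM samples was sequenced. The submitters' processing notes name Trim Galore 0.6.7 for trimming, HISAT2 2.2.1 for alignment, mm10 as genome and featureCounts 2.0.1 for counting. The authors deposited a single table of raw counts, whole numbers with no normalization, and a length for each gene; strand, multimapping and annotation settings are not given in the sources used here. Symbols were matched for 52081 of 55357 identifiers in GENCODE M21 (GRCm38).

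The test was the quasi-likelihood F test of edgeR 4.0.16 (R 4.3.3) on counts kept by filterByExpr, with TMM scaling, robust dispersion estimates and Benjamini-Hochberg adjustment over all 14514 genes. A standard error is the size of the log2 fold change over the square root of its F value. The log2 CPM values used a prior count of 2. CPM per kilobase used the deposited gene length. DESeq2 1.42.0 and limma 3.58.1 (voom), other scalings and filters, a replicate block and leaving out each library were alternatives. Single values were compared by two-sided exact permutation tests, which cannot go below 0.0286 with 4 against 4. On simulated counts for 14334 genes, 67.7% of genes changed by 0.5 and 89.7% of those changed by 1 on the log2 scale were recovered. Of its 162 calls, 8 were unchanged genes. The simulation drew independent libraries at the dispersion trend, so genes spread more widely than the trend may be recovered less often. Depth and 4 libraries per group set the precision. No 2 libraries of a group agreed within sampling noise.

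The markers and lists were chosen with earlier results of these data known. Named from each list were up to 4 genes of smallest p, the IL-4 receptor complex genes and relatives of the markers, whatever their values, and the 3 genes most like Pparg in profile. Genes named after their values were seen are marked so, as are, here, the cell type markers named singly.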

Additional observations from a re-analysis of the deposited data

Results flagged for a closer look

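In 128 groups of 4 libraries, of the genes named above and the marker sums, 1 library stood apart from the other 3 in 5, where about 6.4 would be expected by chance at 1 in 20. The measure is the gap of the outermost library to its neighbour divided by the whole range, set against Dixon's limit for 4 values. It was 0.843 for Arg1 in So(d18:1), at a log2 CPM of 3.17 in replicate 4 against 3.32 to 3.35, and 0.902 for Plxdc2 in So(d18:1), at 3.16 in replicate 1 against 3.35 to 3.37. Klf6 in So(d18:1) had 0.929, at 8.02 in replicate 1 against 8.05, and Gm6377 in control 0.839, at 2.27 in replicate 2 against 2.39 to 2.42. The summed erythroid cell markers in So(d18:1) had 0.929, at -0.99 in replicate 1 against 0.18 to 0.27.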

How the results depend on the processing

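Pparg kept its call and direction under all 18 alternatives, and Klf4 its direction without a call. Chil3 kept its direction under all 18 and lost its call only in the 5 fits named above. The 2 called markers became 4 (Chil3, Mrc1, Pparg and Tgm2) with no filter on low counts, by DESeq2 and with the replicate block. With 1 library left out there were 1 to 2, with 1 (Pparg) without control replicate 4 or So(d18:1) replicate 1, 3 or 4. Mrc1 also passed by limma-voom and, in edgeR, by the likelihood ratio test and the exact test. The number of genes with an adjusted p under 0.05 was 815 to 1370 with 1 library left out, lowest without So(d18:1) replicate 2. Genes past the fold change rule numbered 1212 in place of 564 without the filter and 471 to 668 with 1 library left out. The sign turned for Arg1 (-0.00088) and Il4ra (-0.0058) with upper quartile scaling, with 1 library left out for Arg1 (range -0.081 to 0.20; -0.062, -0.081, -0.0074 and -0.0027 without control replicates 1 and 2 and So(d18:1) replicates 1 and 2) and for Il4ra (range -0.021 to 0.036; -0.021 without So(d18:1) replicate 4). The cause was not tested. The groups share replicate numbers. Correlations of deviations for the same number were -0.0035, 0.10, 0.033 and 0.0091. Those between different numbers ran from -0.14 to 0.11, so whether the numbers mark pairs cannot be told from these values. The replicate block raised the number of genes called to 1784. Upper quartile scaling lowered the share of higher calls from 43.3% to 34.9%. The ratio of Chil3 to neutrophil markers differed by -0.155 to -0.107 with 1 library left out, where 3 against 4 cannot give an exact permutation p under 0.0571.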
